A study of Mus musculus with 19 samples.

Results

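The ribosomal protein genes were examined as a set of housekeeping promoters at which peaks of YAP and of its DNA-binding partner TEAD could be counted in mouse liver. The set was defined by symbol alone: protein-coding genes named Rpl or Rps followed by a number, with or without a closing a, l, x or digit. The rule uses no peak values, but it was chosen with earlier results of these data known. This rule found 78 of 22380 protein-coding genes, 47 for proteins of the large subunit and 31 for proteins of the small subunit. Of these, 72 encode core proteins and 6 are paralogs (Rpl10l, Rpl22l1, Rpl39l, Rpl3l, Rpl7l1 and Rps27l). The members lie on 19 chromosomes.

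Chromatin immunoprecipitation and sequencing (ChIP-seq) was done on 19 liver samples in 6 groups, for YAP and for TEAD in each of 3 conditions. All mice were on a C57BL/6 background and carried ROSA26-rtTA-IRES-EGFP, the reverse tetracycline transactivator that needs doxycycline to act. WT livers, labelled WT in place of tetYAP, received doxycycline food for 7 days, while induced livers expressed tetYAP (YAP S127A, a form that escapes an inhibitory phosphorylation) for 3 days (3 d) or 7 days (7 d), with Alb-CRE directing induction to hepatocytes. There were 3 replicates per group, and 4 for TEAD in 7 d livers. The YAP samples were fixed with a protein-protein crosslinker before formaldehyde, the TEAD samples with formaldehyde only. The TEAD antibody is an anti-TEAD4 that, per the study's methods, was reported to bind TEAD1 and TEAD3 too. The authors merged the replicates of each group before calling peaks, so each group is 1 list, no difference below has a replicate check, and the liver label could not be checked against marker expression. The merged libraries held between 34260362 and 55032002 tags.

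Ribosomal proteins assemble with ribosomal RNA into the small subunit, which decodes mRNA, and the large subunit, which forms peptide bonds. Their genes are transcribed in every cell at high rates from short, mostly CpG-rich promoters, and their mRNAs start with a pyrimidine tract that ties translation to growth signals. YAP does not bind DNA itself and is brought to chromatin chiefly by TEAD proteins, mostly at enhancers far from gene starts.

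The sequences at 4 members with a TEAD peak in all 3 conditions are shown first, because they are among the 10 highest of the set at 7 d and differ in the letters at the summit, the position of highest coverage in a peak. Each run is on the strand of its gene in the NCBIM37 (mm9) assembly, and covers 100 bases on either side of the 7 d summit, cut off near the outermost annotated start where that came first. Capitals mark GGAATG, the core of the TEAD motif, and CCGGAA, the core of the ETS motif, read on either strand. Rps26 (chr10:128063673-128063873, minus strand) and Rps3 (chr7:106632239-106632439, minus strand) encode proteins that line the mRNA channel of the small subunit. Rpl27 (chr11:101303485-101303632, plus strand) encodes a large-subunit protein, and Rps10 (chr17:27772394-27772594, minus strand) a small-subunit protein. The Rps26 run lies wholly upstream of the gene, and the Rps10 run lies in an intron.
Rps26: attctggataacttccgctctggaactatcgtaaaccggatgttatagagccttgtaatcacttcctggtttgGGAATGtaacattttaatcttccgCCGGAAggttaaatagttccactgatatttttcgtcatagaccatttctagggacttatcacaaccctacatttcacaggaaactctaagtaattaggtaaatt
Rpl27: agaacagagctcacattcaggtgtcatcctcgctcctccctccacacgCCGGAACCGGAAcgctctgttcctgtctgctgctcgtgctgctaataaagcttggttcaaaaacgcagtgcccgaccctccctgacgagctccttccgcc
Rps3: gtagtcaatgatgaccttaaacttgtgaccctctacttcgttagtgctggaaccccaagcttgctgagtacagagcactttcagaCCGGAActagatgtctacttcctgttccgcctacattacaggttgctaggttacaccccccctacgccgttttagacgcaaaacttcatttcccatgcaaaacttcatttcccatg
Rps10: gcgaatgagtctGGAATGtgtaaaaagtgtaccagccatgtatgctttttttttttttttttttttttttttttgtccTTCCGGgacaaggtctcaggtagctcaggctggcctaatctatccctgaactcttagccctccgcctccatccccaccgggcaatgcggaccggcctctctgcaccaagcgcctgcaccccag

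In the Rps26 run GGAATG began 27 bases before the summit, and in the Rps10 run 88 bases before it. No GGAATG was present in the runs of Rpl27 and Rps3. The letters CCGGAA occurred 2 times in a row at Rpl27 and 1 time in each of the other 3 runs.

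To ask whether YAP was detected at these housekeeping promoters, genes were counted if a YAP peak overlapped their promoter window, which reached 2000 bp upstream and 1000 bp downstream of any annotated start. No ribosomal protein gene had a YAP promoter peak in any of the 3 conditions. A count of 0 of 78 genes allows a share of up to 3.85% in each list, and this limit covers counting error only. Among all other protein-coding genes, the share with a YAP promoter peak was 0.0359% in the WT list (8 of 22302), 0.0717% at 3 d (16 genes) and 1.04% at 7 d (232 genes). These shares were all under the limit for the members, so a difference between the members and other genes was not detectable with 78 genes.

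TEAD peaks were found at most ribosomal protein promoters after induction. The TEAD lists were also far longer than the YAP lists. They held 5695, 36446 and 38984 peaks, against 156, 110 and 1478 for YAP (WT, 3 d and 7 d). The YAP and TEAD counts are therefore not comparable with each other. In WT livers 11 of the 78 members had a TEAD promoter peak (14.1%, 95% Wilson interval 8.06 to 23.5), against 8.71% of all other protein-coding genes (1942). At 3 d the count was 64 (82.1%, interval 72.1 to 89.0), against 38.7% of the others. At 7 d it was 63 (80.8%, interval 70.7 to 88.0), against 37.4%. In both induced lists the members' share thus lay above the background by more than the counting error, whereas the WT interval included the background. When only peaks of at least 5-fold enrichment were counted, 3 members had one in WT livers, and the difference from the other genes turned from 5.39 to -0.678 percentage points. In bulk tissue, binding in fewer cells and weaker binding per cell cannot be told apart.

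Genes of both subunits were among those with a peak. Of the 47 large-subunit genes, 5 had a TEAD promoter peak in the WT list (10.6%, interval 4.63 to 22.6), 39 at 3 d (83.0%) and 37 at 7 d (78.7%). Of the 31 small-subunit genes, 6 (19.4%, interval 9.19 to 36.3), 25 (80.6%) and 26 (83.9%) did. The difference between the subunits was not tested. The 72 core genes held 61 of the 64 members with a peak at 3 d and 61 of the 63 at 7 d.

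The promoters of the members were CpG-rich more often than those of other genes. An observed-to-expected CpG ratio above 0.6 with a GC content above 50%, taken over 500 bp on either side of the outermost start, was met by 67 members (85.9%) and by 44.0% of the others. Among the 9813 other genes with a CpG-rich promoter, the share with a TEAD promoter peak was 13.2% in the WT list, 60.9% at 3 d and 58.2% at 7 d. The 67 CpG-rich members had 9 genes with a peak in the WT list, 57 at 3 d (85.1%) and 56 at 7 d (83.6%). Set beside this narrower background, the share of all 78 members in WT livers was 0.865 percentage points higher, and at 3 d and 7 d it was above the share of the other CpG-rich genes.

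Other housekeeping families, chosen with earlier results of these data known, had shares near that of the ribosomal protein genes. Of 77 mitochondrial ribosomal protein genes, whose products form the ribosome of mitochondria, 10 had a TEAD promoter peak in the WT list (13.0%), 61 at 3 d (79.2%) and 56 at 7 d (72.7%). Of 42 genes for subunits of the proteasome, which degrades ubiquitin-tagged proteins, 5 (11.9%), 34 (81.0%) and 27 (64.3%) did. Their intervals overlapped those of the ribosomal protein genes in every list. The proteasome interval at 7 d (49.2 to 77.0) also included the 58.2% of other genes with a CpG-rich promoter.

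**Figure D1:**
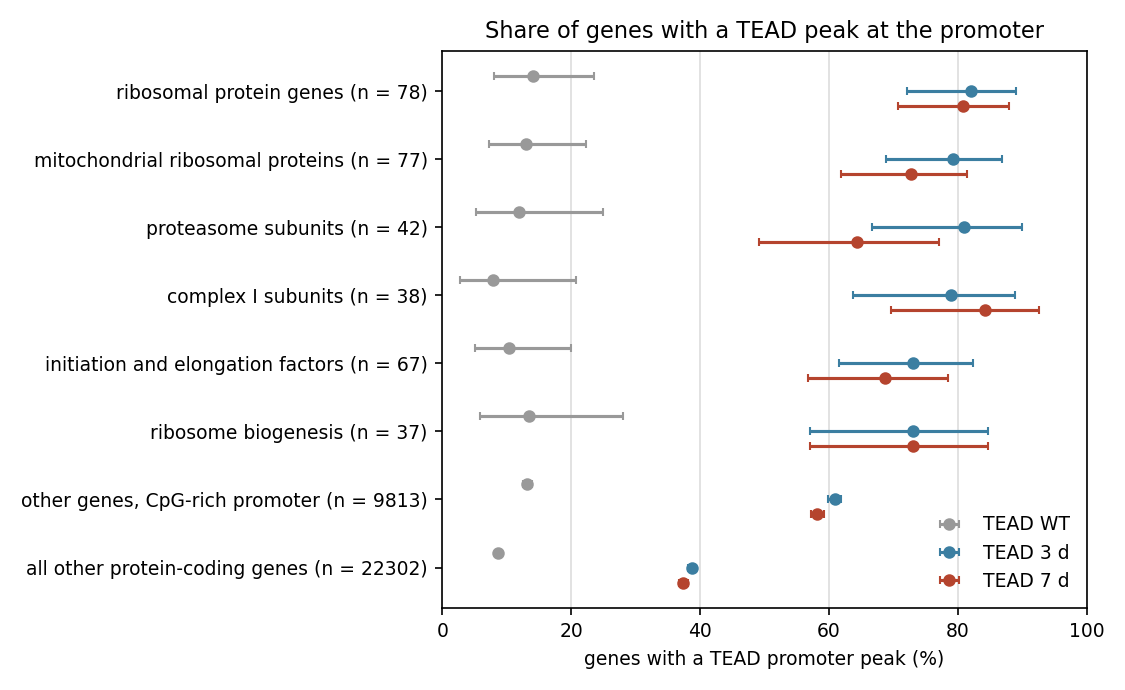
Share of genes with a TEAD promoter peak (x axis, percent) in the WT (grey), 3 d (blue) and 7 d (red) lists, for the ribosomal protein genes, 5 other housekeeping families and 2 backgrounds (rows, with the number of genes). Points are shares and bars 95% Wilson intervals over genes: the ribosomal protein genes were at 14.1, 82.1 and 80.8% in the 3 lists, and all other genes at 8.71, 38.7 and 37.4%.

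The 3 TEAD lists differed in length, with 5695, 36446 and 38984 peaks in WT, 3 d and 7 d livers. When each list was limited to its strongest 5695 peaks by p-value, the members with a promoter peak numbered 11 in the WT list, 7 at 3 d and 6 at 7 d. These are 14.1%, 8.97% and 7.69% of the members, against 8.71%, 7.72% and 5.95% of all other genes. In lists of equal length, the members' share was not higher after induction than in WT livers, and it stood beside 11.7% and 8.75% of other CpG-rich genes in the induced lists. Of the 64 members with a peak at 3 d and the 63 at 7 d, most thus had their peak outside the strongest 5695.

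The rank of the member peaks within each list was examined next, by their pileup, which counts the fragments stacked at the summit. A pileup percentile of 100 is the highest peak of the list. In WT livers the median percentile of the 11 member peaks was 39.6, against 51.2 for other genes with a promoter peak. Ranked by fold enrichment in place of pileup, the WT median of the members was 25.7. At 3 d the pileup percentile was 54.9 against 58.4, and at 7 d 46.5 against 53.2. The median fold enrichment over local background was 4.26, 5.76 and 7.07 for the members and 5.05, 6.07 and 7.78 for the other genes, in the same order.

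Very high peaks were few at the members. In the top 10% of the list were 0 of 11 member peaks in the WT list, 3 of 64 at 3 d (4.69%) and 2 of 63 at 7 d (3.17%). For other genes with a promoter peak, the shares in the top 10% were 12.3%, 12.5% and 11.0%. Among genes for complex I of the respiratory chain they were 6.67% at 3 d and 3.12% at 7 d. Among initiation and elongation factors they were 6.12% and 4.35%, and among ribosome biogenesis genes 11.1% and 3.7%. Mitochondrial ribosomal protein genes had 13.1% and 16.1%, and proteasome genes 14.7% and 14.8%. The member and family counts were small, and no counting interval was computed for these shares. The members thus had peaks often, and these were mostly of middle rank.

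**Figure D2:**
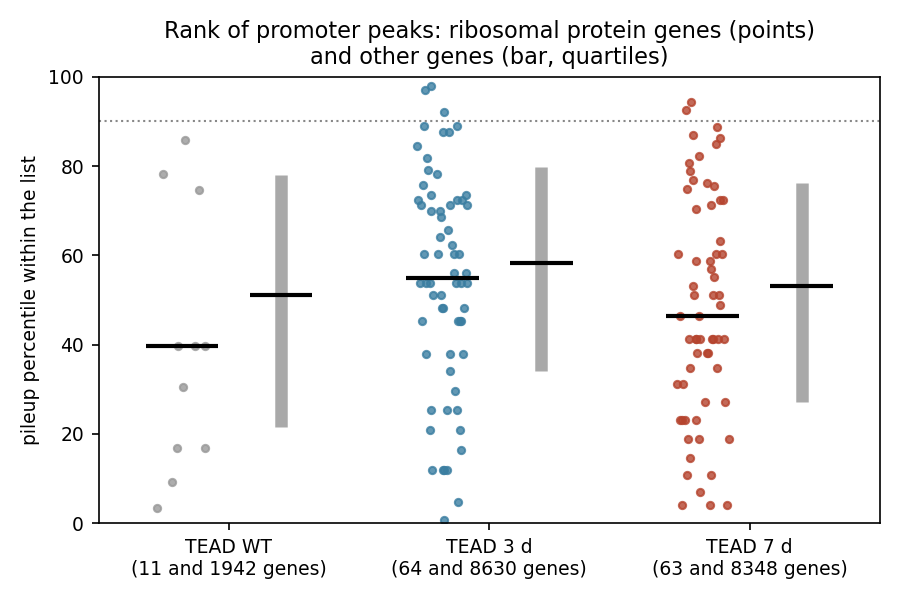
Pileup percentile of promoter peaks (y axis, percent of the peaks of the same list) in the 3 TEAD lists, with 1 point for each ribosomal protein gene with a peak and a grey bar from the lower to the upper quartile of all other genes with one. Black lines are medians (39.6, 54.9 and 46.5 for the members, 51.2, 58.4 and 53.2 for the others) and the dotted line is the start of the top 10%, above which 0, 3 and 2 members lie.

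Rps26 and Rpl27 stood at the top of the set in all 3 lists. The Rps26 peak, whose protein contacts mRNA upstream of the decoding site, had a fold enrichment of 7.10 in the WT list, 20.8 at 3 d and 22.9 at 7 d. Its pileup percentiles were 85.8, 98.0 and 94.4, and at 7 d it was number 2153 of the list, at position 128063428 to 128064192 of chromosome 10. The Rpl27 peak had folds of 7.05, 21.2 and 23.6 and percentiles of 78.2, 97.1 and 92.6, at position 101303343 to 101303917 of chromosome 11 at 7 d. Both genes had higher folds and percentiles in the 2 induced lists than in the WT list. The WT list was called with a longer fragment length (400 bp, against 207 and 206 bp for the induced lists). Folds are therefore not strictly comparable between them. A percentile also depends on the length of its list, and the WT list was far shorter. Counted from the top, Rps26 was number 793, 733 and 2153 (WT, 3 d and 7 d). Rpl27 was number 1206, 1053 and 2867.

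Further genes of both subunits were among the 10 highest at 7 d. Of the small subunit, Rps3, at the mRNA entry site, had folds of 4.92, 11.4 and 19.3 in WT, 3 d and 7 d livers. Rps18, which takes part in a bridge between the subunits, had folds of 6.65, 7.88 and 17.4, and its peak also overlapped the promoter of another protein-coding gene. Rps10 had 4.92, 6.73 and 13.7, and Rps27, a zinc finger protein, 3.72, 8.35 and 13.0. The Rps27 peak, too, overlapped the promoter of another protein-coding gene in each list. All 4 had their highest fold at 7 d, which was common. Among genes with a peak in both induced lists, the fold was higher at 7 d than at 3 d for 48 of 58 members (82.8%). Among the other genes this held for 83% of 7478.

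The large-subunit gene Rpl3, whose protein lies close to the peptidyl transferase centre, had folds of 4.07, 8.98 and 12.6. Rpl24 and Rpl18 had no peak in WT livers. Rpl24, another bridge protein, had folds of 14.3 at 3 d and 17.9 at 7 d. Rpl18 had 9.2 and 12.9, at summits far apart, since its highest peak lay at -112 bp from the nearest start at 3 d and at -1496 bp at 7 d. Rpl35 (7.88 and 12.5) and Rpl17 (8.86 and 11.3), both near the exit tunnel for the nascent chain, followed among the genes without a WT peak. The Rpl35 peaks and the Rpl18 peak at 3 d also overlapped the promoter of another protein-coding gene.

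Of the genes with well-known roles outside general translation, only Rps3 had a peak in WT livers. The folds of the others ranged from 2.70 to 9.19 in the induced lists. Rps6, the target of S6 kinase, had folds of 6.57 at 3 d and 9.19 at 7 d. Rps19, the gene most often mutated in Diamond-Blackfan anaemia, had 7.39 and 8.48. Rpl5 (4.6 and 8.01) and Rpl11 (5.02 and 5.0) form the 5S particle that restrains Mdm2 when ribosome assembly fails. Rpl22, needed for T cell development, had 5.75 and 5.70. Rps14, the gene of the 5q- syndrome, had 2.70 at 3 d, the lowest of any member in any list, and 6.50 at 7 d at another site, 751 bp downstream of a start. Rpl38, required for translation of some Hox mRNAs, had a peak at 3 d (4.43) and none at 7 d.

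**Figure D3:**
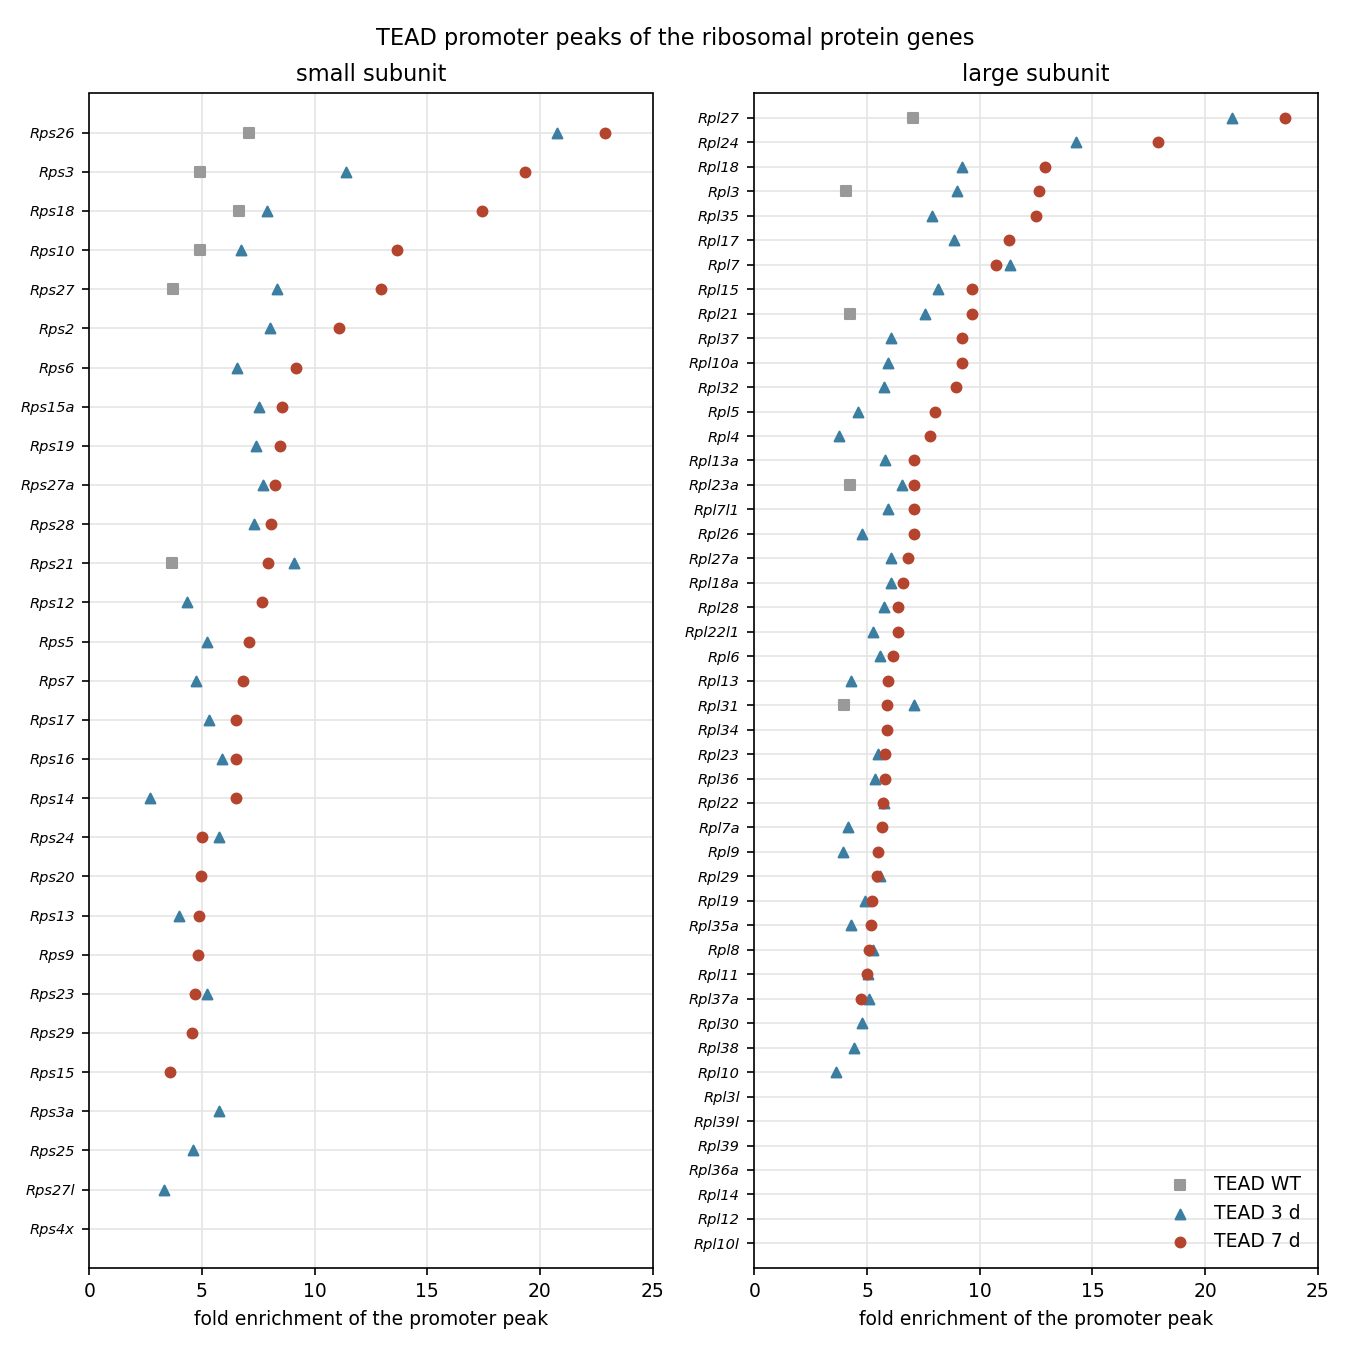
Fold enrichment (x axis, ratio to local background) of the highest TEAD promoter peak of 76 ribosomal protein genes (rows, ordered by the 7 d value within the small and the large subunit) in the WT (squares), 3 d (triangles) and 7 d (circles) lists. A missing symbol is a gene with no peak in that list; values ran from 2.70 (Rps14 at 3 d) to 23.6 (Rpl27 at 7 d), and 8 rows are empty.

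Every member with a peak in WT livers also had one at 3 d and at 7 d. The same held for 1912 of the 1942 other genes with a WT peak, so this was not particular to the members. The 11 members were Rpl21, Rpl23a, Rpl27, Rpl3, Rpl31, Rps10, Rps18, Rps21, Rps26, Rps27 and Rps3 (14.1% of the members, against 8.57% of other genes with a peak in all 3 lists). A further 47 members (60.3%, against 25% of the others) had a peak at 3 d and 7 d only. At 3 d only, 6 members had one (Rpl10, Rpl30, Rpl38, Rps25, Rps27l and Rps3a), which is 7.69% against 5.14% of the others. At 7 d only, 5 members did (Rpl34, Rps15, Rps20, Rps29 and Rps9), which is 6.41% against 3.83%. These peaks, each in 1 induced list, had folds between 3.31 and 5.89 and pileup percentiles between 0.796 (Rpl10) and 51.2 (Rps3a). All of these percentiles were under the member median of the same list (54.9 at 3 d and 46.5 at 7 d).

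No TEAD promoter peak in any list was found at 9 members (11.5%, against 57.4% of the others). Among them were the core genes Rpl12, Rpl14, Rpl36a, Rpl39 and Rps4x, and the paralogs Rpl10l, Rpl39l and Rpl3l. Rpl10l and Rpl39l are known from testis and Rpl3l from heart and skeletal muscle. The other 3 paralogs had a peak: Rpl22l1 had folds of 5.28 at 3 d and 6.35 at 7 d, Rpl7l1 had 5.91 and 7.07, and Rps27l, a p53 target, had 3.31 at 3 d only. None of the 6 paralogs had a peak in WT livers.

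The X chromosome held 4 members, Rpl10, Rpl36a, Rpl39 and Rps4x, a grouping made after their values were seen. None of them had a peak in WT livers or at 7 d, and 1 (Rpl10, fold 3.61) had one at 3 d. Of the 74 members on numbered chromosomes, 63 had a peak at 3 d and 63 at 7 d (85.1% each). Other X-linked genes also had a lower share than other genes on numbered chromosomes: 13.0% against 39.9% at 3 d and 16.6% against 38.3% at 7 d. The members off the X chromosome thus had a share above that of all 78, and the part of the chromosome in these shares was not tested.

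Summits at the members lay close to the starts. The median position of the summit relative to the nearest start was -56 bp in the WT list, -89 bp at 3 d and -94 bp at 7 d. Negative is upstream. For other genes the medians were -115, -100 and -99 bp, close to those of the members in the induced lists. Within 200 bp of a start were 7 of 11 member summits in the WT list, 47 of 64 at 3 d (73.4%) and 44 of 63 at 7 d (69.8%). The shares were 48.5%, 52.3% and 50.2% for other genes, and 80%, 70.5% and 62.5% for mitochondrial ribosomal protein genes. By annotation, 41 of the 63 summits at 7 d were upstream of the gene, 10 in a UTR exon, 6 in an intron, 4 in a coding exon and 2 in a non-coding exon. The members also had more annotated starts, a median of 4 against 2, which shortens the distance to the nearest one.

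**Figure D4:**
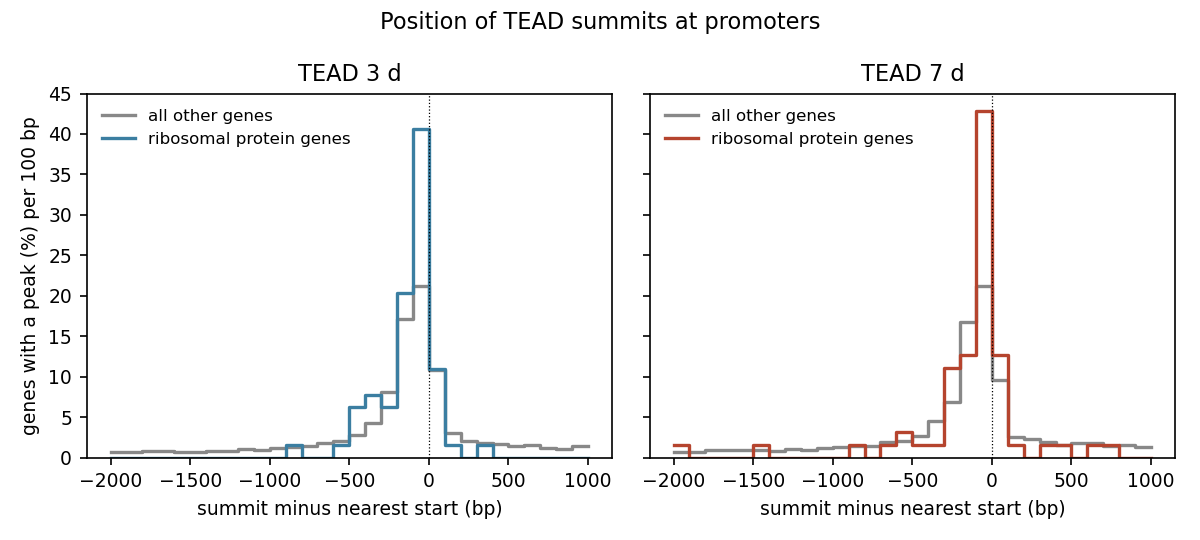
Position of the TEAD summit relative to the nearest annotated start (x axis, bp, negative upstream) as the percentage of genes with a peak per 100 bp (y axis), for the ribosomal protein genes (coloured) and all other protein-coding genes (grey) at 3 d (left) and 7 d (right). The 100 bp just upstream of a start held 40.6% of the member summits at 3 d and 42.9% at 7 d, against 21.2% of the others in each list.

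The same sites were called at 3 d and 7 d for most members. Among the 58 members with a peak in both lists, the summits were a median of 50.5 bp apart, and those of 38 members were within 100 bp. Such distances were not computed for other genes, so whether they are particular to the members was not tested. The 11 WT summits were a median of 40.0 bp from the 7 d summits. Rps14 and Rpl18 were among the members whose highest peak moved to another site.

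Pileup divided by the number of tags of its library was compared between 3 d and 7 d, which had nearly equal fragment lengths. The median ratio of 7 d over 3 d was 1.21 for the 58 members (quartiles 1.08 and 1.43), and 48 of them (82.8%) were above 1. For the 7478 other genes with a peak in both lists the median was 1.27, with 84.1% above 1, so the members' median lay close to that of the other genes. The ratio was highest at Rps18 (2.20, 95% counting interval 1.51 to 3.24), Rps10 (2.02, 1.33 to 3.09) and Rpl4 (1.87, 1.09 to 3.24), which extends a loop into the exit tunnel. The peaks of Rps18 and Rpl4 also overlapped the promoter of another protein-coding gene. The ratio was lowest at Rps24 (0.827, 0.466 to 1.43), Rpl31 (0.831, 0.486 to 1.39) and Rps21 (0.848, 0.552 to 1.29). The counting interval was above 1 for 8 members (13.8%), against 25.2% of the other genes, included 1 for 50 and was below 1 for 0, against 0.321% of the other genes. This interval narrows as the pileup grows, and very high peaks were fewer at the members, as given above. Shares at matched pileup were not compared, so the part of pileup in this difference was not tested. A fall was not detectable at any member.

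YAP peaks were then set against the level of TEAD at the same promoters at 7 d. The TEAD list was divided by pileup into 4 classes with about as many peaks each, a division made after the data were seen. Among other genes, a YAP promoter peak was present at 0 of 1854 genes in the lowest class, 2 of 2010 (0.0995%) in the next, 5 of 2271 (0.22%) in the one above and 225 of 2213 (10.2%) in the highest. The members numbered 14, 20, 17 and 12 in these classes, and 0 had a YAP peak. For the 12 members in the highest class, a count of 0 allows a share of up to 25%, which includes the 10.2% of the other genes. For all 63 members with a TEAD peak the limit was 4.76%, against 2.78% of the other genes. With 63 members, a share of YAP peaks below that of other genes with like TEAD pileup was therefore not detectable.

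**Figure D5:**
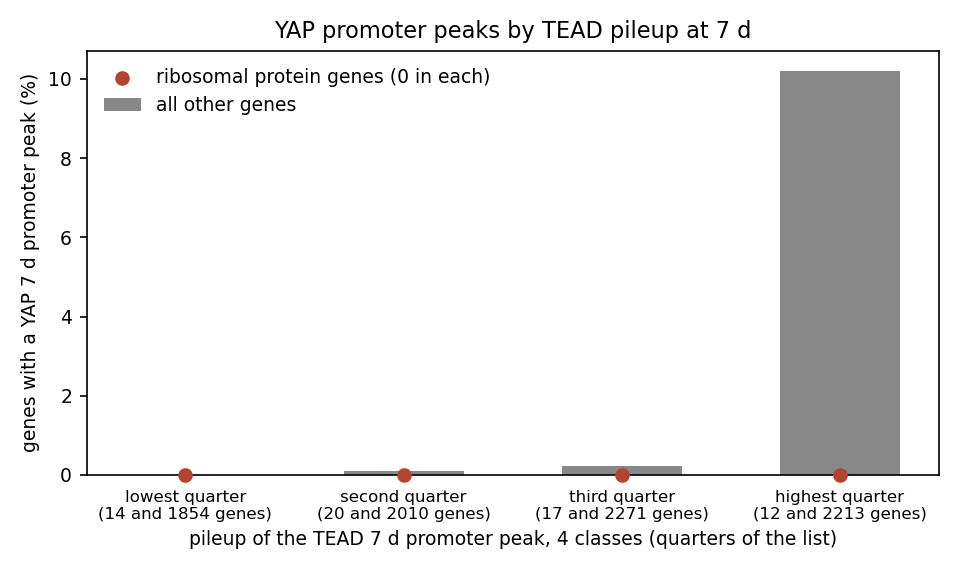
Percentage of genes with a YAP promoter peak at 7 d (y axis) by class of the TEAD pileup at the same promoter (x axis, with the number of ribosomal protein genes and of other genes). Grey bars are all other protein-coding genes (0, 0.0995, 0.22 and 10.2%) and red points the ribosomal protein genes, at 0 in each class.

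The nearest YAP summit at 7 d to a member start was 4737 bp from Rpl23a. That was the 1 member with a YAP summit within 10 kb (1.28%, against 2.85% of other genes), and 9 members had one within 50 kb (11.5%, against 9.26%). The median distance was 598 kb for the members and 488 kb for the other genes.

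The letters of 7 motifs were searched on both strands from 250 bases upstream to 50 bases downstream of the outermost start of each gene. GGAATG (TEAD) was found at 12.8% of the members, 13.4% of all other promoters and 10.3% of the other CpG-rich ones. CCGGAA (ETS) was found at 41.0%, 17.4% and 28.9%, and ATGGCGG, an extended form of the YY1 core, at 15.4%, 4.94% and 8.66%. ATGGC, the YY1 core contained in it, was found at 48.7%, 38.6% and 36.3%. TGANTCA (AP-1) was found at 5.13%, 6.93% and 3.39%, GGGCGG (GC box) at 47.4%, 43.4% and 73.1%, and CACGTG (E-box) at 10.3%, 7.77% and 11.2%. The members' shares with ETS and YY1 letters were thus higher than in either background, and the share with TEAD letters lay between those of the backgrounds. No counting interval was computed for these shares, and that of ATGGCGG rests on 12 members.

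Within 100 bp of the summit, a window chosen after the promoter results were seen, GGAATG was present at 13 of the 63 member peaks at 7 d (20.6%). It was present at 27.6% of the peaks at other promoters and 38.0% of those away from protein-coding promoters. At 3 d the shares were 21.9% (14 of 64), 23.5% and 33.4%, and in WT livers 36.4% (4 of 11), 42.2% and 51.6%. CCGGAA was present at 28.6% of the member peaks at 7 d, 16.8% of those at other promoters and 3.42% of those elsewhere. Most member summits, including those of Rpl27 and Rps3 shown above, had no GGAATG within this window, and other forms of the TEAD motif were not searched.

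Some members lie next to another gene. Of the 78 members, 14 had the start of another protein-coding gene within 1000 bp, and 12 of these had a TEAD peak at 7 d. Of the 22302 other genes, 19248 had no start so close. These held 6397 of the 8348 other genes with a promoter peak at 7 d. Of the 63 member peaks at 7 d, 14 also overlapped the promoter window of another protein-coding gene. Such overlaps were not counted for other genes, so whether they are particular to the members was not tested. Among the 64 members with no other start within 1000 bp, 51 had a peak at 7 d (79.7%), against 33.2% of other genes without such a neighbour.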

How the data were processed

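ChIP-seq peaks of 19 liver samples in 6 groups, taken from the sample labels, were used as deposited. According to the submitters' processing notes, the authors aligned reads to mm9 with BWA 0.6.2 and called peaks with MACS2 2.0.9, and per the file headers the p-value cutoff was 1e-05, against 1 control library of 167176362 tags that came from previously published data. Replicates were merged and duplicates removed by the authors before calling. Of the deposited values, pileup is a signal (fragments stacked at the summit) and fold enrichment is a ratio to local background, and the −log10 p-value and −log10 q-value of each peak are also the authors'. Depth was read from the file headers: 54661175, 36221830 and 34260362 tags for YAP and 35168765, 55032002 and 38523843 for TEAD (WT, 3 d and 7 d). How reads with several matches were treated is not given in the sources used here.

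Starts came from GENCODE for NCBIM37 (70064 distinct starts of protein-coding genes), and peaks on numbered, X, Y and mitochondrial sequences ended within the lengths of that assembly. A gene had a promoter peak if 1 bp or more of a peak overlapped −2000 to +1000 bp of any start, and its highest peak by pileup represented it. Python 3.11.15, pandas 2.3.3 and scipy 1.17.1 were used, and the overlap step was tested on simulated data. With 1 list per group, no p-value was computed. Shares of genes with a promoter peak have 95% Wilson intervals, limits for a count of 0 use 3 counts, and ratios have exact counting intervals. All of these cover counting error only. The symbol rule, gene lists and motifs were chosen with earlier results of these data known. Members named were those with a YAP peak (none), the 10 highest TEAD percentiles at 7 d and the first 3 in the other TEAD lists, the paralogs, the members without a TEAD peak, the 5 highest folds at 7 d without a WT peak, the 3 highest and 3 lowest ratios, and 8 with textbook roles. Further members were named where a count was small, and a few members that this rule names are not reported here.

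Alternatives covered narrower windows, summits in place of peaks, stricter peaks (−log10 p-value of at least 10, fold of at least 5), 1 start per gene, lists of equal length, core members only, a CpG-rich background, other ranks, and, added after the data were seen, members off the X chromosome and genes without a close neighbour.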

Additional observations from a re-analysis of the deposited data

How the results depend on the processing

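The YAP alternatives all use fewer peaks, windows or members, so a count of 0 was fixed in them and they say nothing about stability. Of the 27 alternatives for the TEAD counts, 24 stayed within 1.5 times the reported count. With at least 5-fold enrichment the WT count fell from 11 to 3 members, and in lists of equal length the counts were 7 at 3 d and 6 at 7 d. The members' share minus that of the other genes was 5.39, 43.4 and 43.3 percentage points (WT, 3 d and 7 d). The WT difference became -0.678 with at least 5-fold enrichment and 2.86 with a −log10 p-value of at least 10. Against other CpG-rich promoters the differences were 0.865, 21.2 and 22.6. The cause of these changes was not tested, beyond the smaller number of peaks that each stricter list holds. The WT median percentile of 39.6 became 25.7 when peaks were ranked by fold enrichment. The other 8 alternatives for the median percentiles gave values from 39.6 to 57.7, and the 2 for the ratio of 7 d over 3 d moved by less than the spread between members.

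No paired analysis was possible because the authors merged the replicates before calling peaks so that each list stands for a whole group. Leaving out a replicate was not possible for the same reason. A peak absent from a list had no value. Levels below the caller's cutoff were therefore not compared between conditions, and the number of tags and the fragment length differed between lists.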

Other observations

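Further gene families of protein synthesis and energy supply were counted in the same way. Of 38 genes for subunits of complex I, the first complex of the respiratory chain, 3 had a TEAD promoter peak in the WT list, 30 at 3 d and 32 at 7 d (84.2%). Of 67 genes for initiation and elongation factors of translation, 7, 49 and 46 (68.7%) did, and of 37 genes of ribosome biogenesis, 5, 27 and 27 (73.0%). Among 8 ribosomal protein genes or fusions outside the symbol rule, such as the stalk proteins Rplp0, Rplp1 and Rplp2, the counts were 2, 5 and 7. A YAP promoter peak at 7 d was present at 1 mitochondrial ribosomal protein gene (1.3%), 1 proteasome gene (2.38%) and 1 gene for an initiation or elongation factor (1.49%). The share over all protein-coding genes outside the ribosomal protein set was 1.04%. The other families had 0 genes with one, which allows up to 7.89% for complex I, 8.11% for ribosome biogenesis and 37.5% for the 8 genes outside the rule. A difference between these families was therefore not detectable.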
